A study of Plutella xylostella with 12 samples.

Results

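The comparison described here is between larvae of the diamondback moth *Plutella xylostella* 24 h and 6 h after exposure to the low dose, 0.01 ppm, of chlorantraniliprole. All 3 libraries labelled low dose at 24 h and all 3 labelled low dose at 6 h entered it, 6 of the 12 libraries of the series. The other 6 come from larvae given the high dose, 0.1 ppm, and serve for the test of whether the change with time differed between doses. They also enter the setting that fits all 12 libraries and a comparison of rows at the end. All larvae were 3rd instar whole bodies of the Waite strain, an insecticide-susceptible stock, and RNA was taken from survivors, 3 biological replicates for each dose and time. The diamondback moth is a pest of brassica crops. Chlorantraniliprole, a diamide insecticide, holds open the ryanodine receptor, through which muscle cells release stored calcium. The study asked how larval microRNAs respond to this compound over time. Unexposed larvae were not analysed here, so time since exposure, larval age and time of day cannot be told apart.

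MicroRNAs (miRNAs) are short RNAs that guide Argonaute proteins to messenger RNAs and lower their output. Each hairpin precursor can give a 5p and a 3p strand (arm), of which one is often the more abundant. Insect miRNAs such as let-7, miR-14, miR-278 and miR-281 belong to the circuits of moulting hormone, growth and metabolism, which change within an instar. Whole larvae pool every tissue, so fewer cells of a type and less miRNA per cell cannot be told apart.

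Each library is a list of miRNA names with counts, and the counts of all rows of a name were summed. The 24 h libraries held 37741, 41160 and 41214 counts and the 6 h libraries 30676, 10714 and 20386, so depth moved with time. The mean difference was 19450 counts (exact two-sided permutation p = 0.1, the smallest that 3 against 3 libraries allow, adjusted p = 0.175 over 7 library measures). No row had fewer than 5 counts, and a name missing from a library is therefore not a measured 0. Of the 97 names listed in these 6 libraries, 72 had at least 10 counts in 3 or more of them and were tested, and 99.66% or more of each library's counts fell on them. The other 25 names reached at most 28 counts in any library. Only 3 tested names, pxy-mir-927-3p, pxy-miR-8494-5p and pxy-mir-87-3p, stood under 10 counts in each 6 h library, and none of them was called. The called pxy-miR-8521b-3p had 19, 5 and 5 counts at 6 h, so it too would not have passed the filter without the 24 h libraries, where it is higher. Levels below are CPM, counts scaled to a common library size, after TMM (trimmed mean of M-values) factors had corrected the library totals for composition. A call means an adjusted p under 0.05 in edgeR's quasi-likelihood test with Benjamini-Hochberg adjustment over the 72 names.

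As to tissue, the list of markers for a whole larva was met in part. The muscle miRNA pxy-mir-1-3p was listed in all 6 libraries, at 711 ± 82.1 CPM at 24 h and 756 ± 296 CPM at 6 h (SD, n = 3 each), and the gut and excretory tubule miRNA pxy-miR-281-5p was among the most abundant. Both arms of miR-1175, another gut and tubule marker, were listed too. No name of miR-133, miR-1174, of the nervous tissue markers miR-124, miR-7 and miR-1000, or of the ovary and embryo markers miR-989 and miR-309 was listed. The miRNA reference is not given and rows with few counts are missing, so an unlisted marker does not show that its tissue was absent.

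Between 24 h and 6 h, 10 of the 72 miRNAs passed (13.9%), 5 higher (6.94%) and 5 lower (6.94%). At an unadjusted p under 0.05 there were 24 (33.3%). Higher at 24 h were pxy-miR-8521a-3p, pxy-miR-8521b-3p, pxy-mir-278-5p and, less strongly, pxy-miR-750-3p and pxy-miR-281-5p. Lower were pxy-miR-9b-5p, pxy-miR-14b-5p, pxy-miR-277-3p, pxy-miR-2a-3p and pxy-miR-8496-3p. The 5 that rose made up 19.6% of all counts on average at 24 h and 16.2% at 6 h, and the 5 that fell 4.26% and 6.46%. The smallest change that passed was a log2 fold change of 0.29, for an abundant miRNA. The median log2 fold change of all tested names was -0.016, and the biological coefficient of variation was 9.94%.

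**Figure D1:**
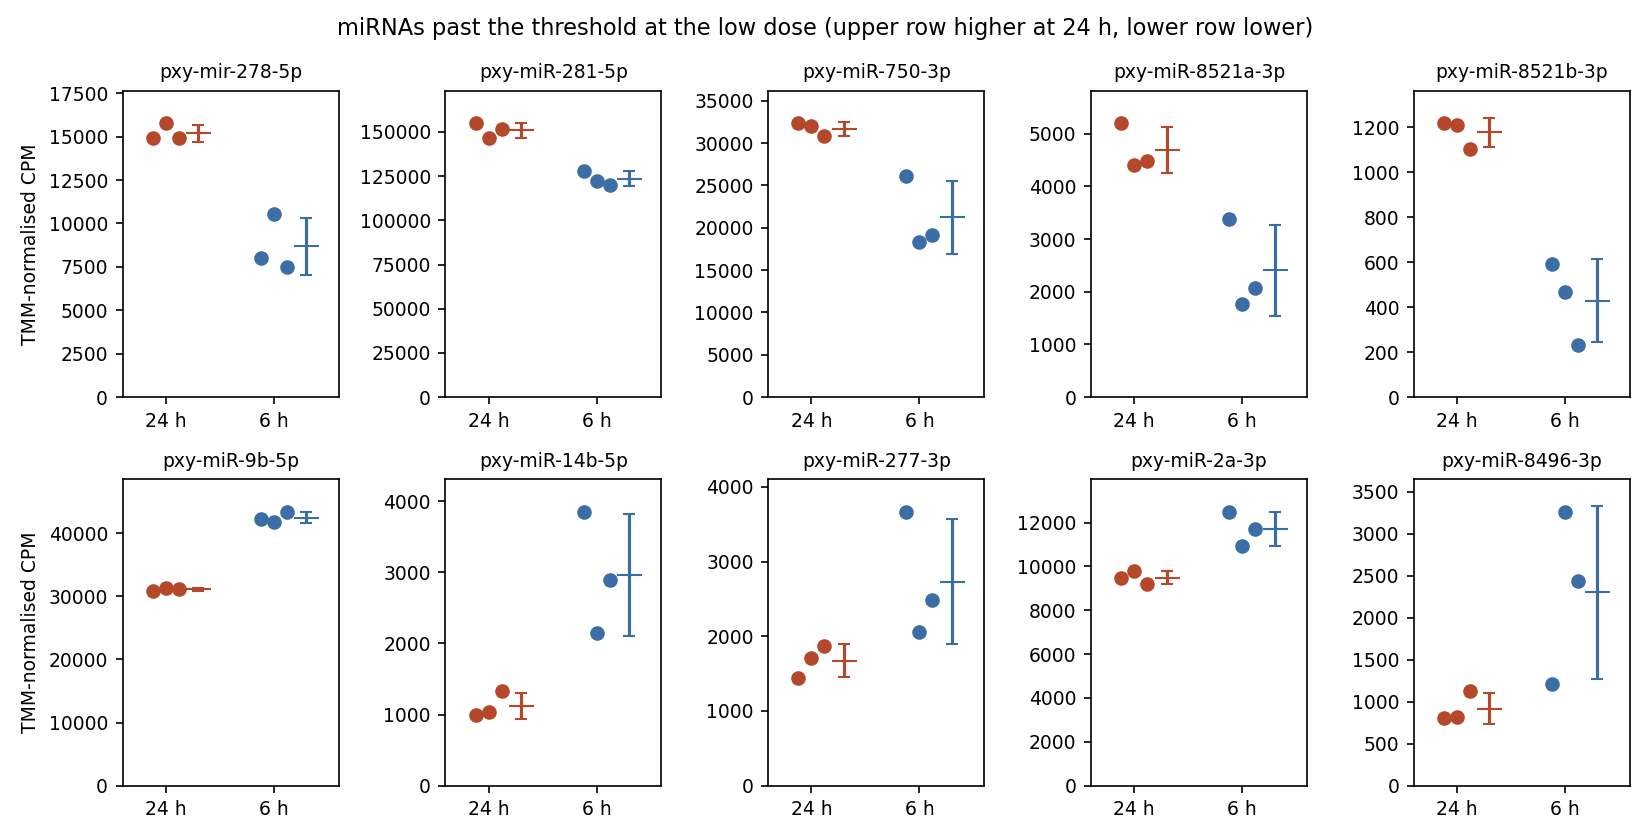
Levels (TMM-normalised CPM, linear axis from 0) of the 10 miRNAs past the threshold in each low-dose library, 24 h on the left and 6 h on the right, with the mean ± SD beside the 3 points of each time. The 24 h libraries lie above every 6 h library in the upper row and below every 6 h library in the lower row.

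The most firmly called rise was that of pxy-mir-278-5p. Flies that lack mir-278 respond less to insulin and are lean, a *Drosophila* role known for the gene, not for its 5p strand alone. Its summed counts were 539, 638 and 583 at 24 h and 258, 113 and 163 at 6 h. Scaled to depth, these were 14898, 15764 and 14946 CPM at 24 h, against 8014, 10535 and 7494 CPM at 6 h. The 24 h values lay close together and all stood above the highest 6 h value. The level was 1.80-fold higher at 24 h (log2 0.85 ± 0.12 SE, adjusted p = 0.00122, edgeR). The 6 h library nearest in depth to the 24 h libraries, replicate 1 with 30676 counts, lay between the other two.

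Levels of pxy-miR-281-5p rose by less but involved far more of the library. In the silkworm, miR-281 acts on an isoform of the ecdysone receptor in the Malpighian tubule. It stood at 154811, 146328 and 151790 CPM at 24 h, against 128075, 122226 and 119951 CPM at 6 h, with no overlap. The change was 1.22-fold (0.29 ± 0.06 SE, adjusted p = 0.00693, edgeR), and its mean share of all counts was 14.5% at 24 h and 12.8% at 6 h. The call was lost when libraries were scaled by their totals alone (0.18, adjusted p = 0.076) and when all 12 libraries shared the estimate of spread (0.34, adjusted p = 0.0573).

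The arthropod miRNA pxy-miR-750-3p had 32339, 32048 and 30789 CPM at 24 h, against 26156, 18366 and 19172 CPM at 6 h. It was 1.47-fold higher (0.56 ± 0.12 SE, adjusted p = 0.0146, edgeR), and the deepest 6 h library was the closest to the 24 h level. The call was lost without 24 h replicate 2 (0.60) or without 6 h replicate 3 (0.48).

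The names pxy-miR-8521a-3p and pxy-miR-8521b-3p come from the number range given to miRNAs of this moth, and no function is stated for them here. The first had 5196, 4398 and 4486 CPM at 24 h, against 3386, 1771 and 2069 CPM at 6 h, a 1.81-fold rise (0.86 ± 0.20 SE, adjusted p = 0.0213, edgeR). Its 6 h values came from 109, 19 and 45 counts. The second had 44, 49 and 43 counts at 24 h and 19, 5 and 5 counts at 6 h, or 1216, 1211 and 1102 CPM against 590, 466 and 230 CPM (1.40 ± 0.34, adjusted p = 0.0237). At 6 h it thus stood at the lowest value a row can have in 2 of the 3 libraries, and with only its highest row counted the change was 0.46 (adjusted p = 0.606). As the 2 names differ by a letter, reads may have been shared between them in a way that no label or header describes. Neither name passed without any one of the 24 h replicates or without 6 h replicate 3, and with 1 library left out the log2 fold changes ran from 0.73 to 1.31 for the first and from 1.08 to 1.97 for the second. The first was also lost when a common floor was set for the rows of all libraries (0.84, adjusted p = 0.0607).

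Among those that fell, pxy-miR-9b-5p had the tightest values. Its family includes *Drosophila* miR-9a, which limits the number of sense organs. It stood at 30874, 31232 and 31122 CPM at 24 h, against 42153, 41767 and 43355 CPM at 6 h. Both sets spread by far less than the gap between them, and the level was 1.37-fold lower at 24 h (-0.45 ± 0.06 SE, adjusted p = 0.00122, edgeR).

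The largest fall among the called miRNAs was that of pxy-miR-14b-5p. The fly miR-14 curbs cell death and fat storage and takes part in the ecdysone response, roles known for the gene, not for this strand alone. It rested on few reads, 36, 42 and 52 counts at 24 h and as few as 23 at 6 h. After scaling, its levels were 995, 1038 and 1333 CPM at 24 h, against 3852, 2144 and 2896 CPM at 6 h. It was 2.77-fold lower at 24 h (-1.47 ± 0.23 SE, adjusted p = 0.002, edgeR), and the largest of the 6 h values was that of the deepest 6 h library.

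The other called falls were less firm. Levels of pxy-miR-277-3p, which in *Drosophila* restrains the breakdown of branched-chain amino acids, were 1437, 1705 and 1871 CPM at 24 h, against 3666, 2051 and 2483 CPM at 6 h (-0.79 ± 0.22 SE, adjusted p = 0.0468, edgeR). Those of pxy-miR-2a-3p, of a family that represses cell death genes in *Drosophila*, were 9453, 9810 and 9203 CPM at 24 h, against 12488, 10908 and 11724 CPM at 6 h (-0.32 ± 0.09, adjusted p = 0.0468). In both, all 24 h values lay below all 6 h values, with the closest pair 1871 at 24 h and 2051 at 6 h for pxy-miR-277-3p. That 6 h value came from 22 counts, in the shallowest library. Levels of pxy-miR-8496-3p, from the number range of this moth, were 802, 815 and 1128 CPM at 24 h, against 1212, 3263 and 2437 CPM at 6 h (-1.20 ± 0.35, adjusted p = 0.047). It rested on few reads, 29, 33 and 44 counts at 24 h and 39, 35 and 53 counts at 6 h. Its 6 h value in the deepest library was nearly that of the highest 24 h library. The shallowest 6 h library had the highest level, from 35 counts in 5 rows, the highest row with 9.

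The calls were kept to unequal degrees when single libraries were left out. Such a fit compares 3 libraries with 2, and a lost call did not always go with a smaller change. Without any 1 of the 24 h replicates, pxy-miR-8521a-3p and pxy-miR-8521b-3p lost their calls though their changes were larger than with all 6 libraries. For pxy-miR-277-3p without 6 h replicate 1 the change was smaller. The part of the lower number of libraries in the losses was not tested. Each of the 10 kept its direction under all 12 other settings that gave it a value and with each of the 6 libraries left out. Of the 10, 3 passed in every one of these fits: pxy-mir-278-5p, pxy-miR-9b-5p and pxy-miR-14b-5p, with log2 fold changes of 0.73 to 0.97, -0.56 to -0.35 and -1.91 to -1.16. With 1 library left out, pxy-miR-277-3p, pxy-miR-2a-3p and pxy-miR-8496-3p each passed in 1 of the 6 fits, with values down to -0.42, -0.21 and -0.91. For pxy-miR-277-3p the -0.42 came without 6 h replicate 1, and its call held only without 6 h replicate 2. The call on pxy-miR-2a-3p held without that library too, and that on pxy-miR-8496-3p without 6 h replicate 1. Of the 12 other settings, pxy-miR-2a-3p passed in 3, pxy-miR-8496-3p in 8 and pxy-miR-277-3p in 9, which was lost with DESeq2 (-0.72), upper quartile factors (-0.68) and the common row floor (-0.61). With only the highest row counted, the change of pxy-miR-8496-3p was -0.39 (adjusted p = 0.563). Without 6 h replicate 2, the shallowest library, 20 miRNAs passed, 12 higher and 8 lower, 9 of them among the 10. Without 24 h replicate 1, 2 or 3 the counts were 6, 4 and 5, and without 6 h replicate 3 it was 4. The split of 5 higher and 5 lower became 11 and 3 with upper quartile factors and 5 and 10 with library totals alone, where the median of all tested names was 0.075 and -0.13. The scaling factors themselves differed between times, at 0.946 to 0.983 in the 24 h and 1.00 to 1.07 in the 6 h libraries.

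**Figure D2:**
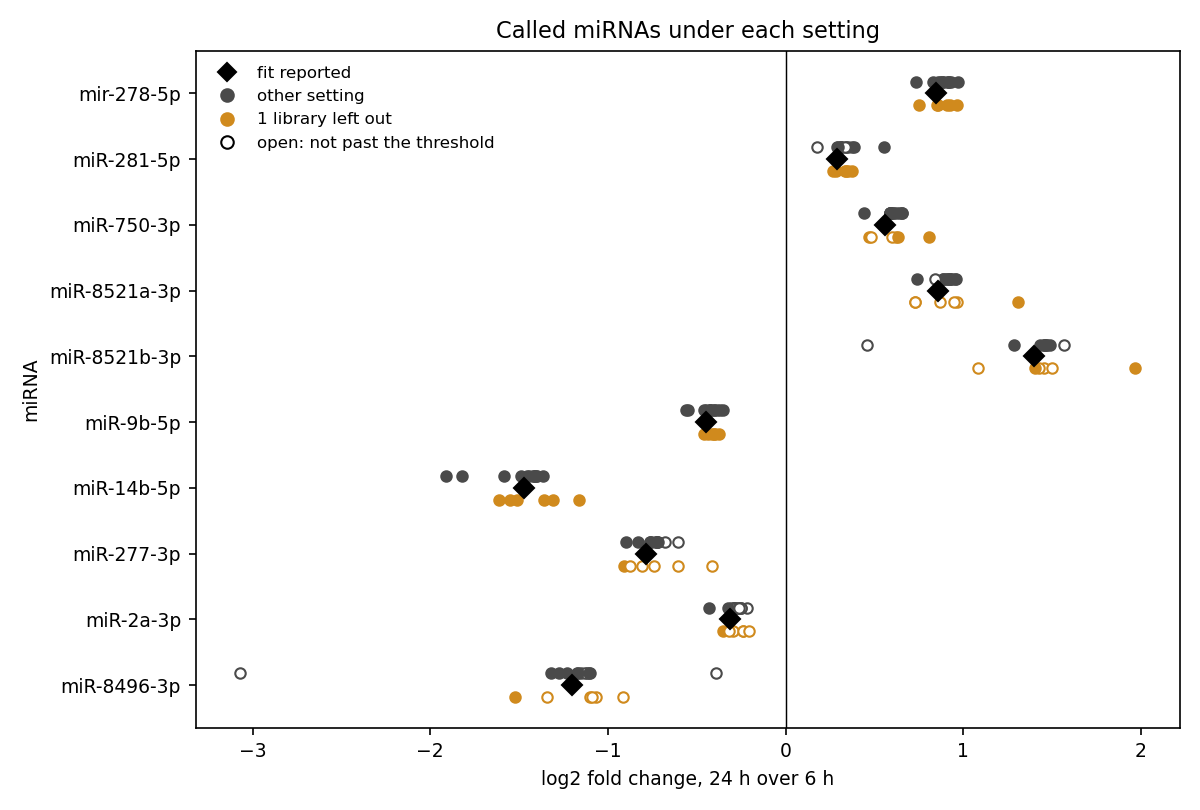
Log2 fold change (24 h over 6 h) of the 10 called miRNAs in the reported fit (black diamonds), under other settings (grey circles) and with 1 library left out (orange circles), with open circles where the threshold was not passed. Every point of a miRNA lies on 1 side of 0, and pxy-mir-278-5p, pxy-miR-9b-5p and pxy-miR-14b-5p have no open circle.

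The 10 most abundant miRNAs included 3 of the calls, which were pxy-miR-9b-5p, pxy-miR-281-5p and the 3p arm of mir-750. The most abundant, pxy-miR-10-5p, which lies in the Hox gene complex of insects, had 181428, 172791 and 199037 CPM at 24 h, against 117607, 176766 and 134893 CPM at 6 h. The shallowest 6 h library overlapped with the 24 h values, and the change did not pass (0.37 ± 0.13 SE, adjusted p = 0.071, edgeR). It passed without that library (0.55) and, with all 6 libraries, in 5 of the 12 other settings. The same library set the overlap for pxy-mir-184-3p, at 99282, 83171 and 83727 CPM at 24 h against 58431, 86798 and 61424 CPM at 6 h (0.38 ± 0.14, adjusted p = 0.0795), which also passed without it (0.57) and in 5 of the 12 other settings. For pxy-mir-31-5p all 24 h values, 112798 to 119045 CPM, lay below the 6 h values, 125606 to 136059 CPM, and the change of -0.18 ± 0.06 did not pass (adjusted p = 0.0655), though it did in 3 of the 12. Nor did those of pxy-miR-279b-3p (0.21, adjusted p = 0.0748), which passed in 6 of the 12, and of 2 others among the 10, pxy-mir-276-3p (-0.16, adjusted p = 0.132) and pxy-miR-263a-5p (-0.15, adjusted p = 0.223). The most even of the 10 was pxy-miR-274-5p, with 55427 ± 957 CPM at 24 h and 55832 ± 1348 CPM at 6 h (-0.01 ± 0.06, adjusted p = 0.938).

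**Figure D3:**
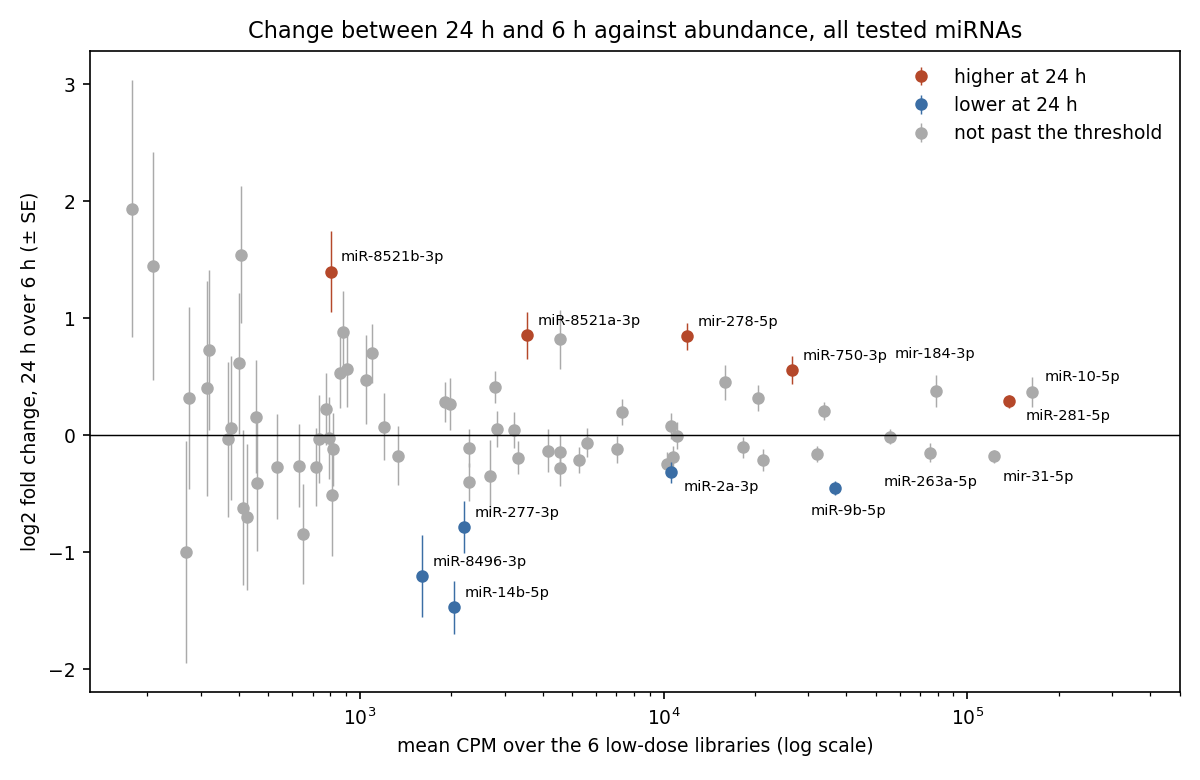
Log2 fold change (24 h over 6 h, ± SE) against mean CPM over the 6 libraries (log scale) for the 72 tested miRNAs, with those past the threshold in colour and the most abundant also named. Error bars widen towards low abundance, and of 6 changes over 1 in size 3 passed.

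The counts by list below stand beside 13.9% called over all tested names. The lists share members, count both arms and were not tested for enrichment. Of 10 tested miRNAs from families with a known part in ecdysone, juvenile hormone or insulin pathways of insects, 2 rose (pxy-miR-281-5p as well as pxy-mir-278-5p), 1 fell (pxy-miR-14b-5p) and 7 did not pass, with a median log2 fold change of 0.062 beside -0.016 for all tested names. One of the 7 was pxy-mir-14a-3p, from a second miR-14 gene, at 22630 ± 865 CPM at 24 h and 18419 ± 3033 CPM at 6 h (0.32 ± 0.11, adjusted p = 0.0748). It passed without 6 h replicate 2 (0.43) and in 5 of the 12 other settings. A further one was pxy-mir-927-3p, of a family that acts on juvenile hormone signalling in *Drosophila*, with 29, 22 and 22 counts at 24 h and 7 and 7 counts in the 6 h libraries that list it (adjusted p = 0.0909). Of the 7 metabolism miRNAs, 1 rose, 2 fell and 4 did not pass (median -0.061), the calls being pxy-mir-278-5p, pxy-miR-14b-5p and pxy-miR-277-3p. Of 10 from families tied to insecticide response in insects, 1 rose, 2 fell and 7 did not pass (median -0.17), among them pxy-mir-71-3p (-0.28 ± 0.15) and pxy-miR-2b-3p (-0.51 ± 0.52).

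The miR-2, miR-13 and miR-71 cluster had 1 lower member of 4 tested and a median of -0.30, with pxy-mir-13b-3p at -0.035 ± 0.66. The miR-9 family list, to which miR-306 was added though not a member of the family, had 1 lower of 4 and a median of -0.33. The other abundant names on this list did not pass. They were pxy-miR-9a-5p (19707 ± 1744 CPM at 24 h and 22938 ± 1871 CPM at 6 h, log2 -0.21) and pxy-miR-306-5p (10096 ± 665 and 11408 ± 528 CPM, -0.18). In both, every 24 h library lay below every 6 h library. The times stood apart in this way for 27 of the 72 tested names (37.5%), 15 higher (20.8%) and 12 lower (16.7%). In the miR-277, miR-317 and miR-34 group, pxy-miR-277-3p fell while pxy-mir-317-3p, its neighbour in the *Drosophila* genome, did not pass. Its levels were 5113, 6227 and 6768 CPM at 24 h, against 4194, 1305 and 3770 CPM at 6 h (0.82 ± 0.25, adjusted p = 0.0558), with the low 6 h value in the shallowest library, and it passed in 10 of the 12 other settings. No member passed among 4 of the miR-279 family (median -0.13; pxy-miR-279a-3p -0.24, pxy-mir-279c-3p -0.12, pxy-mir-279d-3p -0.13) or 3 of the Hox complex (median 0.41; pxy-miR-10-3p 0.41 ± 0.14 with the 2 times apart, pxy-mir-993-3p 0.56 ± 0.32).

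The let-7 complex, which marks developmental time and is induced by ecdysone in flies, had no call among 3 tested (median 0.27), and their values differed in sign. Levels of pxy-let-7-5p were 2239, 1581 and 2666 CPM at 24 h, against 1864, 1865 and 1655 CPM at 6 h (0.27 ± 0.22 SE, adjusted p = 0.469, edgeR), so the times overlapped. Its cluster mate pxy-mir-100-3p had 14704, 17568 and 22816 CPM at 24 h, against 12612, 15103 and 13057 CPM at 6 h (0.45 ± 0.15, adjusted p = 0.071). The other arm, pxy-let-7-3p, averaged 286 ± 16.5 CPM at 24 h and 563 ± 401 CPM at 6 h (SD, n = 3 each), with the highest value, 1026 CPM, in the shallowest library. Its change of -0.70 ± 0.62 SE did not pass (adjusted p = 0.494, edgeR). On the muscle list, pxy-mir-1-3p differed by a log2 of -0.034 ± 0.38 and did not pass. Among the rest, 1 of 4 midgut and tubule miRNAs and 1 of 4 of the pair miR-750 and miR-1175 rose (median 0.11 each), with pxy-mir-1175-5p at 0.052 and pxy-mir-1175-3p at 0.16. None passed of 2 from the miR-12 and miR-283 cluster (pxy-mir-12-5p -0.11, pxy-miR-283-5p 0.48), 3 of the miR-316 and miR-92 pair (pxy-mir-316-5p 0.88 ± 0.35, pxy-mir-92b-3p -0.14, pxy-mir-92a-3p 0.32) and 3 described in Lepidoptera (pxy-mir-3338-3p -0.84 ± 0.43, pxy-mir-2763-3p 0.23, pxy-miR-2755-3p -0.002). Of 14 tested in the number range of this moth, 2 rose, 1 fell and 11 did not pass, with a median of 0.47. The abundant ones among the 11 were pxy-miR-8536b-3p (-0.19) and pxy-miR-8495-5p (-0.35). The range taken left out pxy-miR-8489a-3p, more abundant than these, which did not pass (0.20 ± 0.11). Not listed in 6 h replicate 2, the shallowest library, were pxy-miR-8494-5p, pxy-miR-8520-5p, pxy-miR-8507-3p, pxy-miR-8532-3p and the joined name pxy-miR-8510a-3p//pxy-miR-8510b-3p. They entered it as 0 and had positive changes, 0.06 to 1.94, and the part of depth in the median was not tested. The lists for nervous tissue, for ovary and embryo and for the miR-275 and miR-305 cluster had no listed name.

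For several called miRNAs the other arm of the same precursor was not shown to move with it. While pxy-mir-278-5p rose, pxy-mir-278-3p stood at 5362, 5906 and 5409 CPM at 24 h, against 6057, 4755 and 6207 CPM at 6 h (-0.06 ± 0.12 SE, adjusted p = 0.761, edgeR). While pxy-miR-14b-5p fell, pxy-mir-14b-3p stood at 10393, 11366 and 11305 CPM at 24 h, against 11556, 8484 and 10620 CPM at 6 h (0.08 ± 0.11, adjusted p = 0.649). For pxy-miR-750-5p the value was -0.21 ± 0.11, that of pxy-miR-281-3p was 0.05 ± 0.16 and that of pxy-miR-9b-3p, not listed in 2 of the 6 libraries, was -0.999 ± 0.95, none of which passed. Every 24 h library lay below every 6 h library for pxy-miR-750-5p, opposite to its called arm, and it passed in 1 of the 12 other settings. The value of pxy-miR-9b-3p had the sign of its called arm, with an SE nearly as large as the value. The arm pxy-miR-2a-5p was listed in 2 of the 24 h libraries alone, with at most 7 counts, and was not tested.

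The ratio of the arms within a library does not depend on its scaling factor, but it does depend on depth where an arm is not listed. Over the 13 precursors with both arms tested, the log2 ratio of 5p to 3p counts (1 added to each) stood apart between times in 5 (38.5%). For mir-14b it was -3.35, -3.42 and -3.06 at 24 h, against -1.58, -1.94 and -1.86 at 6 h, a difference of -1.49. For mir-278 it was 1.47, 1.41 and 1.46 at 24 h and 0.40, 1.13 and 0.27 at 6 h, a difference of 0.85. For mir-750 it was -2.72, -2.83 and -2.55 at 24 h and -2.19, -1.68 and -1.79 at 6 h, a difference of -0.82. The other 2, let-7 (0.99) and mir-927 (-2.07), rest on a 3p arm with at most 11 and 29 counts in a library. In 6 h replicate 2 the 3p arm of mir-927 was not listed and entered as 0. Without that library the differences were -1.22 for mir-927 and 0.50 for let-7. An arm not listed also entered as 0 for mir-9b, mir-14a and mir-274, whose times overlapped. The ratio of mir-274 was 9.24 in 6 h replicate 2, against 6.69 and 5.89 in 6 h replicates 1 and 3. In each of the 5 the exact two-sided permutation p was 0.1, the smallest that 3 against 3 allow, and the adjusted p over the 13 precursors was 0.26, so none passed.

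**Figure D4:**
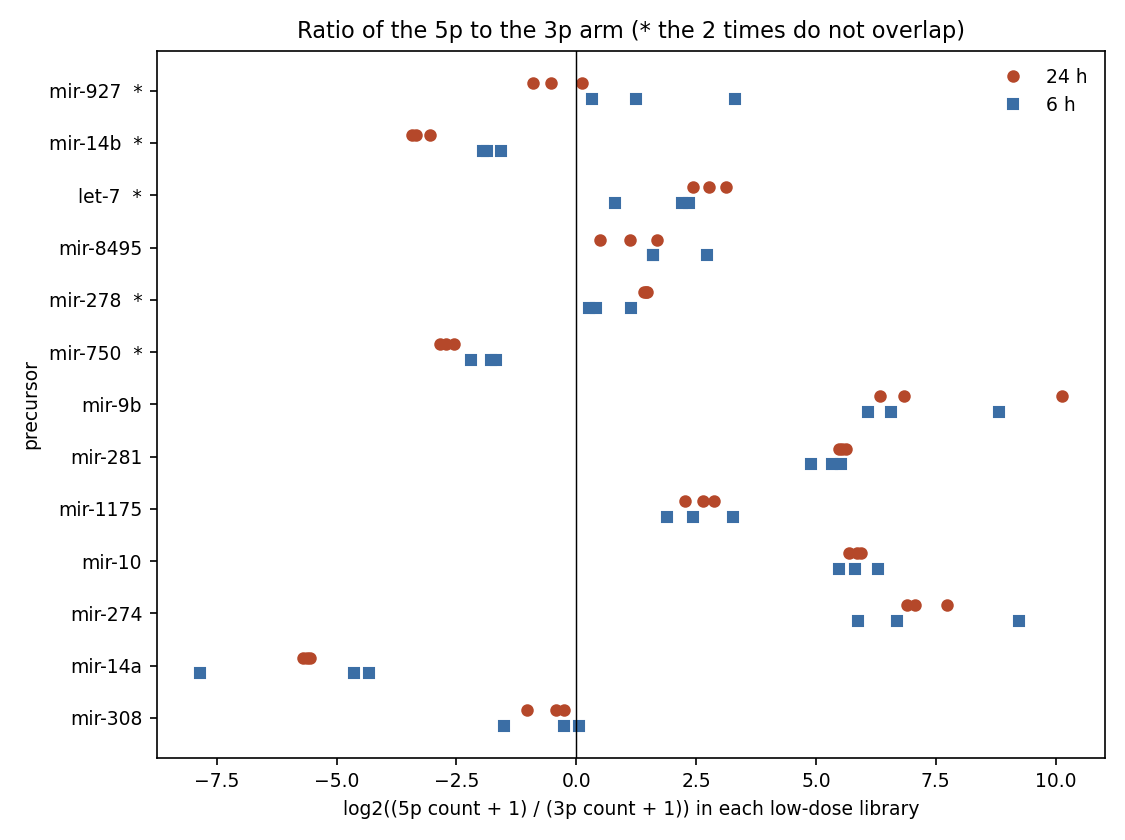
Log2 ratio of the 5p to the 3p count (1 added to each) of 13 precursors in each low-dose library, 24 h as circles above 6 h as squares, ordered by the size of the difference. In the 5 precursors marked with a star the 2 times do not overlap, as for mir-14b with -3.42 to -3.06 at 24 h and -1.94 to -1.58 at 6 h.

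Whether the change with time differed between doses was tested as an interaction over all 12 libraries, in which 6 of 76 names passed (7.89%). In the same fit 4 of 76 (5.26%) changed with time at the high dose. In this fit pxy-mir-278-5p rose by a log2 of 0.88 ± 0.16 SE at the low dose and fell by 0.94 at the high dose, a difference of 1.82 ± 0.23 (adjusted p = 3.21e-06, edgeR). High-dose larvae had 6727, 4924 and 6868 CPM at 24 h, against 9768, 11470 and 14110 CPM at 6 h, so the times stood apart there too, in the opposite order. For pxy-miR-279b-3p, of the family that in flies shapes carbon dioxide sensing neurons, the change was 0.25 (low dose) and -0.57 (high dose), a difference of 0.82 ± 0.16 (adjusted p = 0.00141). For pxy-miR-281-5p it was 0.34 (low) and -0.29 (high), a difference of 0.63 ± 0.16 (adjusted p = 0.0145). The changes, low dose first, were 0.93 and -0.09 for pxy-miR-8521a-3p (1.01 ± 0.27), -0.72 and 0.45 for pxy-miR-277-3p (-1.17 ± 0.30) and -1.17 and 0.26 for pxy-miR-8496-3p (-1.42 ± 0.38), each with adjusted p = 0.0145. Some of these depended on the setting. With upper quartile factors and library totals the pxy-miR-281-5p difference was 0.14 and 0.30, and counting only the highest row gave -0.13 in the case of pxy-miR-8496-3p, none of which passed. The pxy-miR-279b-3p difference did not pass with upper quartile factors (0.34). That of pxy-miR-8521a-3p was lost with upper quartile factors (0.55), library totals (0.68) and the common row floor (0.90), and that of pxy-miR-8496-3p with the floor too.

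For the other calls no difference between doses was shown. The change of pxy-miR-9b-5p was -0.40 ± 0.12 SE in low-dose and -0.37 ± 0.12 in high-dose larvae, a difference of -0.03 ± 0.17 (adjusted p = 0.956, edgeR). That of pxy-miR-14b-5p was -1.40 ± 0.25 in low-dose and -0.36 ± 0.26 in high-dose larvae, a difference of -1.04 ± 0.36 that missed the threshold (adjusted p = 0.0681). That of pxy-miR-750-3p was 0.61 and 0.03 (difference 0.58 ± 0.19, adjusted p = 0.0552), that of pxy-miR-8521b-3p 1.46 and 0.86 (0.59 ± 0.58), and that of pxy-miR-2a-3p -0.26 and -0.20 (-0.06 ± 0.18).

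**Figure D5:**
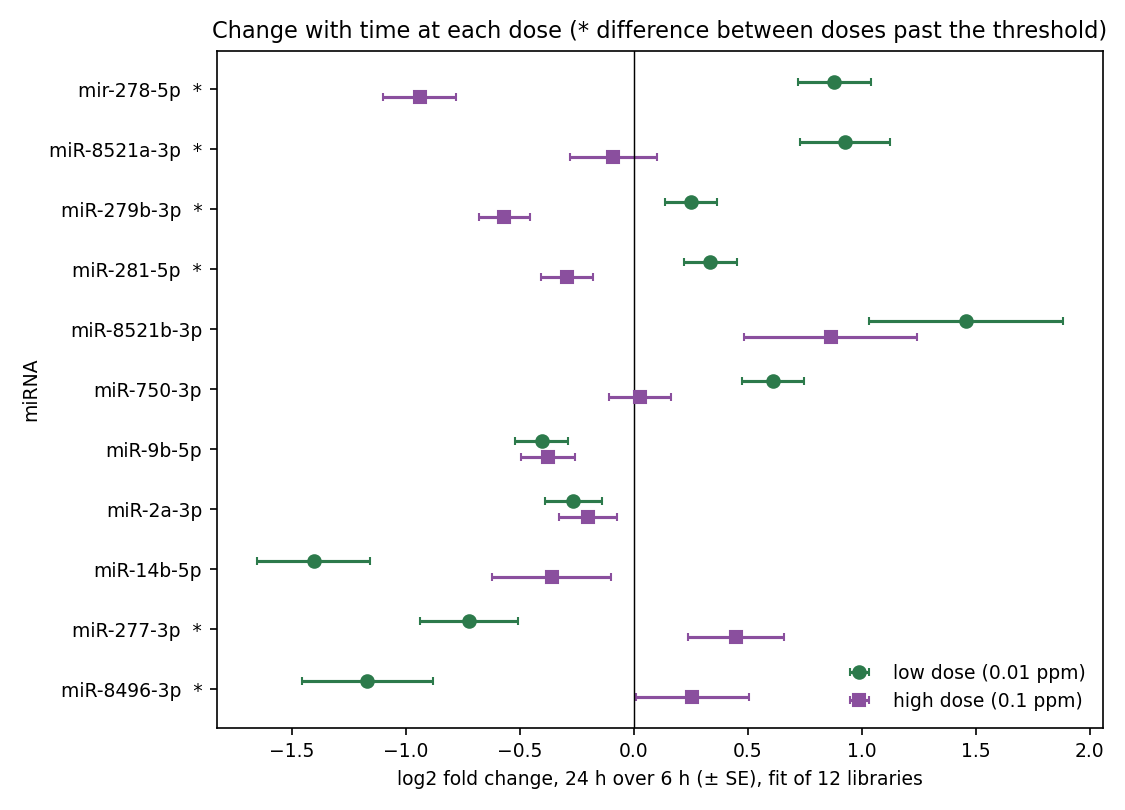
Log2 fold change between 24 h and 6 h (± SE) at the low dose (circles) and the high dose (squares) from the fit of 12 libraries, for the 10 called miRNAs and pxy-miR-279b-3p, with a star where the difference between doses passed. The doses lie on opposite sides of 0 for pxy-mir-278-5p, at 0.88 and -0.94, and close together for pxy-miR-9b-5p, at -0.40 and -0.37.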

How the data were processed

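Per the labels' protocols, RNA of whole larvae went into TruSeq small RNA libraries, read to 50 nt by Illumina HiSeq. The authors deposited raw counts, several rows for most names. How reads were mapped, to which miRNA reference, why no row is under 5 and what distinguishes the rows of a name: none of this is given in the sources used here. Each library totalled 10714 to 41214 counts over the 6 low-dose libraries. No molecular identifiers are named, so a count of reads is not known to be a count of molecules. The SE and p-values of edgeR include the spread between replicate libraries, not counting error alone. In 2 listed names the files join a pair of miRNAs. No miRNA sequences or positions were at hand, so none are shown.

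Counts were summed by name, names with at least 10 counts in 3 or more of the 6 libraries were kept, and edgeR 4.0.16 in R 4.3.3 (TMM, glmQLFit, glmQLFTest, 4 residual degrees of freedom) compared 24 h with 6 h. SE was taken as log2 fold change over the root of F. The dose interaction was fitted on 12 libraries, for names with at least 10 counts in 3 or more of the 12. The code was tested on simulated data. No libraries were merged, since within each time every pair differed by more than counting noise (chi-square over its degrees of freedom 2.54 to 8.42).

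Named were all calls, the 10 most abundant, the other arms of calls, up to 4 abundant members of each of 19 lists and all interaction calls. Members and lists were chosen with earlier results of these data known. Lists were described by counts and medians only. Same-numbered replicates did not deviate together (correlations -0.046, -0.39 and -0.195), so numbers were not used as pairs. Alternatives were DESeq2 1.42.0, RLE, upper quartile or no factors, other filters, the highest row, a common row floor of 467 CPM (the lowest row value in the shallowest library), the replicate block, all 12 libraries, limma 3.58.1 voom with sample weights, and each library left out.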

Additional observations from a re-analysis of the deposited data

Results flagged for a closer look

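The change between 24 h and 6 h differed between the low and the high dose, by the interaction test over 12 libraries in edgeR, for 6 miRNAs. On the log2 scale the low-dose change minus the high-dose change was -1.17 for pxy-miR-277-3p, 1.82 for pxy-mir-278-5p, 1.01 for pxy-miR-8521a-3p, 0.82 for pxy-miR-279b-3p, -1.42 for pxy-miR-8496-3p and 0.63 for pxy-miR-281-5p. Leaving out 1 of the 12 libraries at a time, 3 to 9 miRNAs passed. Those of pxy-mir-278-5p and pxy-miR-279b-3p passed in all 12 of these fits. The call was lost in 4 of them for pxy-miR-8521a-3p (0.845, 0.886, 0.865 and 1.02), in 2 for pxy-miR-277-3p (-0.864 and -0.983), in 2 for pxy-miR-281-5p (0.524 and 0.606) and in 2 for pxy-miR-8496-3p (-1.32 and -1.39). Low-dose 6 h replicate 3 and high-dose 6 h replicate 3 were each among the libraries whose absence ended 3 of these calls.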

How the results depend on the processing

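The count of 10 calls became 6 with a common row floor, 5 of them among the 10, and 4 to 20 with 1 library left out. With DESeq2 it was 9, with all 12 libraries 8, and with the other settings 10 to 15. The replicate block gave 15 calls, 9 of them among the 10, and lost pxy-miR-2a-3p (-0.31, adjusted p = 0.113), which was also lost in 8 of the 11 other settings with all libraries kept. For the dose interaction it gave 8 in place of 6, and with 1 library left out 3 to 9 passed. With the common row floor the 24 h libraries listed fewer names and rows on average than the 6 h libraries (differences of -5.33 and -11.3), against 13.7 and 100.7 as deposited. Its value of -3.07 for pxy-miR-8496-3p is not a measured fold, as names under the floor count as 0. In 6 h replicate 2, the shallowest library, 13 tested names were not listed, and the part of depth in this was not tested.

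None of the 10 calls changed sign. Of the named miRNAs that did not pass, those that changed sign under another setting, with the log2 fold change there, were pxy-miR-274-5p (0.0161, 0.014, 0.0861, 0.038, 0.0145, 0.0531, 0.0239, 0.0549, 0.0367), pxy-miR-2755-3p (0.0172, 0.0221, 0.0955, 0.046, 0.026, 0.063, 0.0772, 0.0642, 0.0396), pxy-miR-281-3p (-0.0726, -0.0019, -0.3889), pxy-miR-283-5p (-0.1736), pxy-mir-1-3p (0.0509, 0.0479, 0.0269, 0.0196, 0.0218), pxy-mir-1175-5p (-0.0646, -0.2617), pxy-mir-13b-3p (0.0558, 0.0455, 0.1265, 0.0243), pxy-mir-14b-3p (-0.0373), pxy-mir-278-3p (0.0371, 0.0068), pxy-mir-279c-3p (0.2744) and pxy-mir-92b-3p (0.0066). With 1 library left out, those that changed sign had the ranges pxy-miR-274-5p (-0.0058 to 0.0511), pxy-miR-2755-3p (-0.0594 to 0.1087), pxy-miR-281-3p (-0.0043 to 0.1711), pxy-miR-2b-3p (-0.8545 to 0.0388), pxy-mir-1-3p (-0.3611 to 0.3664), pxy-mir-1175-3p (-0.1352 to 0.347), pxy-mir-1175-5p (-0.0141 to 0.1959), pxy-mir-12-5p (-0.1619 to 0.0494), pxy-mir-13b-3p (-0.3171 to 0.779), pxy-mir-14b-3p (-0.013 to 0.2329), pxy-mir-278-3p (-0.1383 to 0.0383), pxy-mir-279c-3p (-0.1755 to 0.0504) and pxy-mir-279d-3p (-0.3003 to 0.0763). The cause was not tested.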

Other observations

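Most names fill several rows of a library, and the files do not say how they differ. In 21 tested names the second highest row had at least 10 counts in all 6 low-dose libraries. The count of that row as a percent of the highest row did not overlap between times in 11 of them, 7 higher and 4 lower at 24 h, which was noticed in the data and not tested. For pxy-miR-750-5p it was 90.1%, 94.6% and 94.2% at 24 h and 51.0%, 48.8% and 49.2% at 6 h. For pxy-mir-279c-3p it was 19.1%, 24.6% and 21.2% at 24 h and 51.7%, 46.5% and 52.4% at 6 h. For pxy-miR-281-5p it was 57.6%, 67.2% and 61.5% at 24 h and 86.5%, 94.9% and 83.8% at 6 h, and for pxy-miR-10-5p 13.8%, 14.6% and 16.0% at 24 h and 20.8%, 21.2% and 22.0% at 6 h. In the high-dose libraries the difference kept its sign in 5 of the 11, and 2 stood apart in the same direction, pxy-miR-9a-5p and pxy-miR-263a-5p. In contrast, pxy-miR-281-5p had 91.2% to 96.8% at 24 h and 89.6% to 94.2% at 6 h. The rest of the 21 names were not examined at the high dose, so no share over all of them is given. Whether the second row is the same molecule in each library is not stated.

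Of the 25 names too low to test, pxy-mir-iab-4-5p, from the Hox complex, had 5, 16 and 12 counts in the 24 h libraries and was not listed at 6 h, and pxy-mir-92b-5p had 14, 5 and 15 counts at 24 h and was not listed at 6 h. These names were picked after their values were seen, and the deeper 24 h libraries list more names.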
